A study of Mus musculus with 36 samples.

Results

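Mx1 and Mx2 are interferon-induced antiviral GTPases of the dynamin family. Every probe set annotated to one of these symbols alone was taken, which gave 1 probe set for each of the 2 genes, 1451905_a_at for Mx1 and 1419676_at for Mx2, of 45037 non-control probe sets on the array (18193 genes with a probe set of their own). Both passed the filter on low values (a log2 value above 4 in at least 3 arrays), as did 21874 probe sets in all, and 0 probe sets with several symbols included Mx1 or Mx2. The passing arrays were nearly all arrays with IFN alpha, so passing the filter is no result in itself. New RNA of NIH-3T3, a fibroblast line that came from mouse embryos, was measured on 36 Affymetrix arrays. The cells received fresh medium with IFN alpha, a type I interferon (100 U/ml), with IFN gamma, the type II interferon (100 U/ml), or with mock, and RNA made during a labelling window took up 4-thiouridine (4sU), a nucleoside through which newly made RNA can be separated from older RNA. The windows, counted from the medium change, were 0-30, 30-60 and 150-180 min with 500 µM 4sU and 0-60 min with 200 µM 4sU, with 3 arrays for each of the 12 groups. The labels number the arrays of a group but do not call them separate cultures, so the p-values may measure technical spread alone.

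Mx proteins assemble into rings and block viruses after entry, and in the mouse Mx1 acts in the nucleus, mainly against influenza-like viruses, while Mx2 acts in the cytoplasm, against vesicular stomatitis virus among others. Both genes are textbook targets of ISGF3, the transcription factor complex with Stat2 and Irf9 that type I interferon activates and that binds the interferon-stimulated response element (ISRE). IFN gamma acts mainly through another element, the gamma-activated site (GAS). Many inbred mouse strains carry defective Mx alleles, and RefSeq annotates both Mx1 and Mx2 of the C57BL/6J reference (GRCm38.p6) as transcribed pseudogenes. The arrays read newly made RNA and hold no measure of Mx protein or of the allele that NIH-3T3 cells carry.

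All 7 fibroblast markers passed the filter, among them the filament gene Vim with a mean of log2 13.15. Of the macrophage, other leukocyte, epithelial and endothelial markers 0 of 6, 0 of 3, 0 of 4 and 0 of 4 passed, the highest being Csf1r at 3.57. Arrays of a group correlated across probe sets at r of 0.904 to 0.994. The lowest value was in the mock 0-60 min group, on whose array 1 the 3′ minus 5′ Gapdh difference was log2 2.67, against -0.57 to 0.73 on all other arrays.

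**Figure D1:**
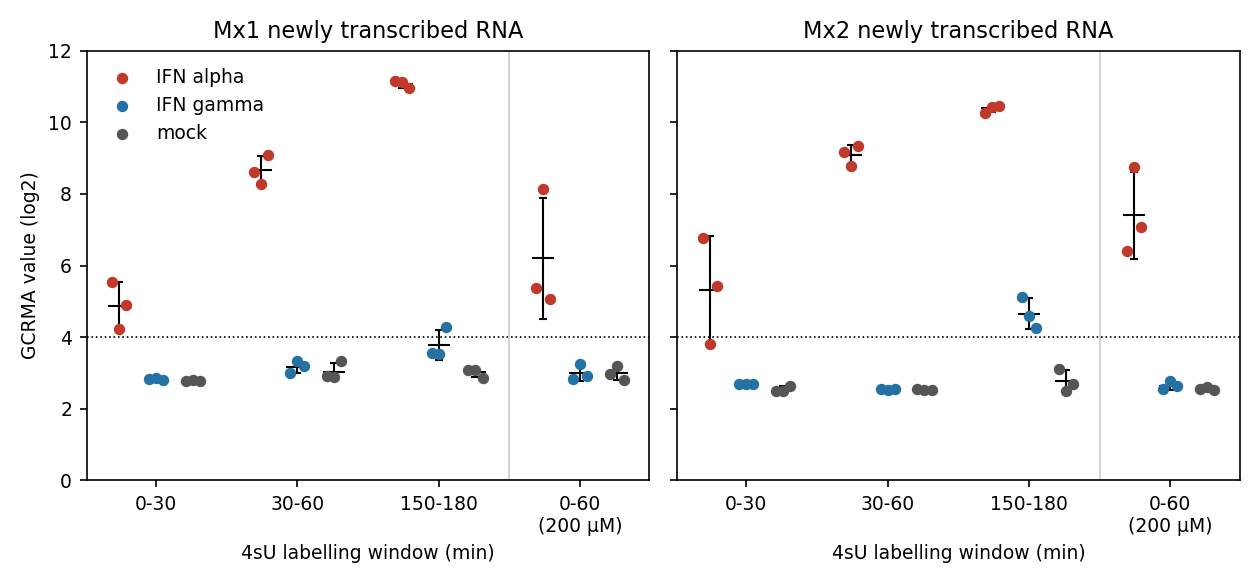
GCRMA values (log2, vertical axis) of Mx1 and Mx2 on each array by labelling window (min) and treatment, with bars for the group mean and SD of 3 arrays and a dotted line at the filter of log2 4. The IFN alpha arrays climb to 10.95 to 11.15 for Mx1 and 10.27 to 10.46 for Mx2 at 150-180 min, while the mock arrays stay between 2.5 and 3.32.

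In the 0-30 min window of IFN alpha both Mx genes were called above mock, in calls that depended on the handling of low values. Mx1 had log2 values of 5.53, 4.22 and 4.89 with IFN alpha, against 2.77, 2.79 and 2.78 in mock. Mx2 had 6.76, 3.8 and 5.43 with IFN alpha, against 2.5, 2.5 and 2.64 in mock. For both genes every IFN alpha array lay above every mock array, which held for 5.02% of all probe sets tested. Array 1 was the highest and array 2 the lowest of the IFN alpha arrays for both genes. In limma's moderated test, adjusted over all probe sets, Mx2 rose by log2 2.78 ± 0.44 (6.89-fold, standard error of the fit, adjusted p = 3.7e-04) and Mx1 by 2.1 ± 0.43 (4.3-fold, adjusted p = 0.013), so 2 of 2 members were called higher in a comparison that called 0.338% of all probe sets higher. Both mock means lay under the filter, so each fold is set against background signal. The Mx1 call ended without IFN alpha array 1 (1.78, adjusted p = 0.23), without IFN alpha array 3 (0.067) and without any 1 of the mock arrays (0.068 to 0.07), and remained without IFN alpha array 2 (0.0065). The Mx2 call remained in each of these fits, with a rise of 2.07 without IFN alpha array 1 and 3.55 without array 2, and with the arrays of this window alone its adjusted p was 0.057. With 16 added to the unlogged values both calls ended (1.01, adjusted p = 1, for Mx1 and 1.47, adjusted p = 0.053, for Mx2), and so they did against a 2-fold minimum.

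In the second half-hour of labelling, 30-60 min, both genes were far above mock on every array with IFN alpha. Mx1 had 8.6, 8.29 and 9.1 with IFN alpha, against 2.91, 2.88 and 3.32 in mock. Mx2 had 9.16, 8.78 and 9.33 with IFN alpha, against 2.54, 2.53 and 2.53 in mock. The 3 IFN alpha arrays of either gene spanned under 1 log2 unit, and the groups lay apart, as they did for 5.68% of probe sets. Mx1 rose by 5.63 ± 0.43 (49.4-fold, adjusted p = 3.4e-11) and Mx2 by 6.55 ± 0.44 (94-fold, adjusted p = 1.6e-12). Both were called higher, against 1.84% of all probe sets. No mock array exceeded the filter, so the folds and the places below are set against background signal. The IFN alpha means stood 4.66 (Mx1) and 5.09 (Mx2) above the filter, and with 16 added to the unlogged values the differences from mock were 4.12 and 4.68. Among 25 genes, these and 23 other antiviral effectors, ranked by this difference, Mx2 stood at place 3 and Mx1 at place 7.

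At 150-180 min of IFN alpha, the new RNA signal of both genes had its highest mean of the 12 groups. The change of the response from 30-60 min passed in limma for neither gene (Mx1 2.43, adjusted p = 0.08, and Mx2 1.08). Mx1 had 11.15, 11.12 and 10.95 with IFN alpha, against 3.09, 3.08 and 2.87 in mock. Mx2 had 10.27, 10.44 and 10.46 with IFN alpha, against 3.1, 2.5 and 2.69 in mock. The IFN alpha arrays were tightly grouped, with an SD of 0.11 for Mx1 and 0.103 for Mx2 (n = 3), and did not overlap with mock, which held for 8.59% of probe sets. Mx1 rose by 8.06 ± 0.43 (267-fold, adjusted p = 3.2e-15) and Mx2 by 7.63 ± 0.44 (198-fold, adjusted p = 2.2e-14), with 2.29% of probe sets called higher. Of all 21874 probe sets tested, Mx1 had the difference of rank 5 and Mx2 that of rank 8. Set against the filter of log2 4 in place of the mock value, the IFN alpha means stood 7.07 and 6.39 higher for Mx1 and Mx2.

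The whole first hour was labelled at a lower 4sU concentration, and the IFN alpha arrays scattered widely, with an SD of 1.7 for Mx1 and 1.21 for Mx2, beside 0.654 and 1.48 at 0-30 min (n = 3). Mx1 had 5.38, 8.15 and 5.07 with IFN alpha, against 2.98, 3.18 and 2.81 in mock. Mx2 had 6.4, 8.75 and 7.07 with IFN alpha, against 2.55, 2.62 and 2.53 in mock. Array 2 of the IFN alpha group was the highest for both genes, and no IFN alpha array fell to the mock range, as in 4.64% of probe sets. Mx2 rose by 4.84 ± 0.44 (28.7-fold, adjusted p = 3e-09) and Mx1 by 3.21 ± 0.43 (9.24-fold, adjusted p = 6.3e-06), with 1.39% of probe sets called higher. All mock arrays lay under the filter, so these folds too are set against background signal. With 16 added to the unlogged values the rises were 3.11 for Mx2 and 1.98 for Mx1, and both calls remained. Without IFN alpha array 2 the rises were 4.17 and 2.23 with adjusted p of 3.9e-08 and 1.5e-06, and without mock array 1, the array set apart by its Gapdh values, they were 4.83 and 3.2. When only the 9 arrays of 0-60 min were fitted, the Mx1 difference had a standard error of 0.67 and an adjusted p of 0.15, and its call ended. The mean Mx1 value at 0-60 min was log2 6.2, beside 7.77 for the average of the unlogged 0-30 and 30-60 min means, and for Mx2 the values were 7.41 and 8.19. The labelling times and 4sU concentrations differ, so these stand side by side without a comparison.

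**Figure D2:**
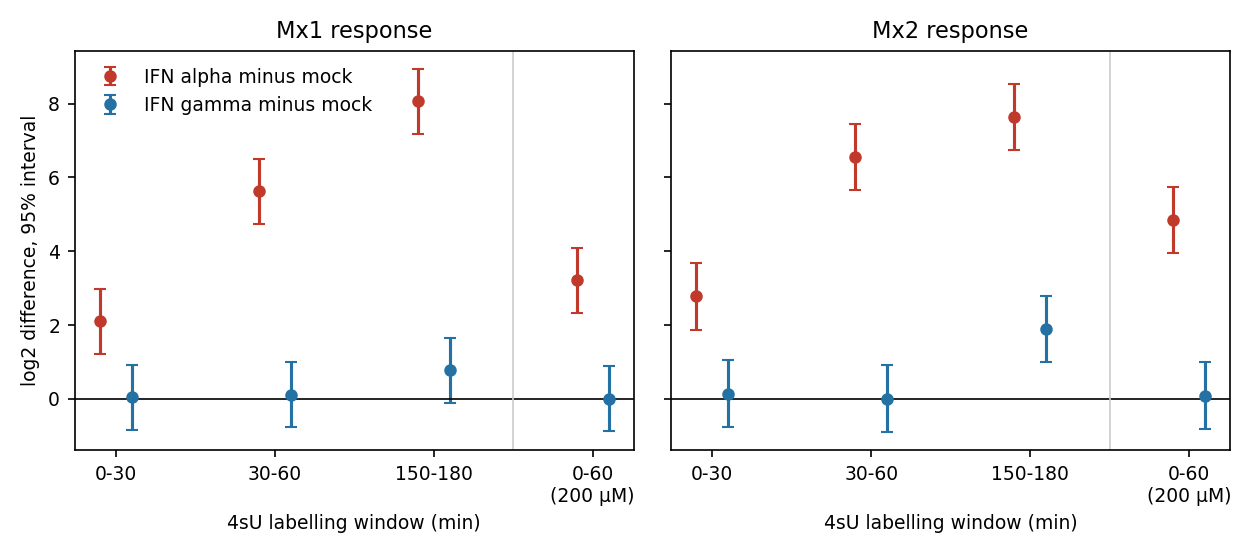
Log2 difference of IFN alpha minus mock and IFN gamma minus mock for Mx1 and Mx2 (vertical axis, points with 95% intervals of the limma fit, n = 3 arrays per group) in each labelling window (min). IFN alpha differences reach 8.06 for Mx1 and 7.63 for Mx2 at 150-180 min, and of the IFN gamma intervals only that of Mx2 at 150-180 min, 0.99 to 2.8, lies above 0.

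The response to IFN alpha grew within the first hour for both genes. Between the 0-30 and 30-60 min windows it increased by log2 3.77 ± 0.63 for Mx2 (adjusted p = 4e-04) and by 3.52 ± 0.61 for Mx1 (adjusted p = 7.2e-04), tested in limma as a difference of differences. These were 2 of 2 members, against 0.795% of probe sets called higher, and against a 2-fold minimum the Mx1 increase had an adjusted p of 0.052. From 30-60 to 150-180 min the change of the response was 2.43 ± 0.61 for Mx1 (95% interval 1.19 to 3.68, adjusted p = 0.08) and 1.08 ± 0.63 for Mx2 (-0.2 to 2.35, adjusted p = 1), so 0 of 2 members passed, and 0.334% of probe sets were called higher. With array numbers as a block within windows, the Mx1 change passed at an adjusted p of 0.016, although at 150-180 min the numbers did not pair all arrays. With only the arrays of these windows it passed at 3.5e-04, and Mx2 did not pass in either fit. On the unlogged scale the IFN alpha level of Mx1 was 1.37% at 0-30 min and 18.8% at 30-60 min of its level at 150-180 min, and that of Mx2 was 3% and 40.5%. These shares compare IFN alpha levels between windows without setting them against mock, and they were not tested. In mock, 39.2% of all probe sets were called higher and 24% lower at 150-180 than at 30-60 min. The Mx1 minus Mx2 difference of the IFN alpha responses was -0.68, -0.93 and 0.43 at 0-30, 30-60 and 150-180 min, and -1.63 at 0-60 min. These are differences between probe sets, which can differ in their own scale, and they were not tested, nor was the share of either signal that comes from the other gene's transcript.

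With IFN gamma neither gene passed against mock in the windows of the first hour, and Mx2 alone was called higher at 150-180 min. At 0-30 min the IFN gamma minus mock difference was 0.05 for Mx1 (95% interval -0.83 to 0.93) and 0.14 for Mx2 (-0.76 to 1.05), at adjusted p = 1 in limma for both. The 3 Mx2 arrays with IFN gamma all read 2.69 and lay above the mock arrays (2.5, 2.5 and 2.64), as in 5.86% of probe sets, but all 6 values were under the filter. At 30-60 min the differences were 0.12 for Mx1 (-0.76 to 1) and 0.01 for Mx2 (-0.9 to 0.91), and at 0-60 min they were 0 (-0.88 to 0.88) and 0.08 (-0.82 to 0.99). Over these 3 windows the comparisons called 0.539%, 2.98% and 2.86% of probe sets higher (0-30, 30-60 and 0-60 min) and 0 of 2 members.

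At 150-180 min Mx2 had 5.13, 4.6 and 4.25 with IFN gamma, against 3.1, 2.5 and 2.69 in mock. Each IFN gamma array lay above the filter and above each mock array, and such a separation held for 11.7% of probe sets. Mx2 rose by 1.9 ± 0.44 (3.73-fold, adjusted p = 0.0062). Mx1 had 3.56, 3.54 and 4.27 with IFN gamma, against 3.09, 3.08 and 2.87 in mock. Its groups did not overlap either, but only array 3 with IFN gamma exceeded the filter, and its difference of 0.78 ± 0.43 did not pass (adjusted p = 0.49). With only the arrays of this window the same difference passed at an adjusted p of 0.038. So 1 of 2 members was called, against 3.82% of all probe sets called higher. The Mx2 call ended when 16 was added to the unlogged values (0.86, adjusted p = 0.21), and its highest adjusted p with any 1 array left out was 0.046. From 0-30 to 30-60 min the IFN gamma response changed by 0.07 ± 0.61 for Mx1 and -0.14 ± 0.63 for Mx2, neither passing (adjusted p = 1), with 0.928% of probe sets called higher. The change of the IFN gamma response from 30-60 to 150-180 min was 1.89 ± 0.63 for Mx2 (adjusted p = 0.2) and 0.65 ± 0.61 for Mx1 (adjusted p = 0.93), and 0.923% of probe sets passed as higher. With only the arrays of those windows the Mx2 change had an adjusted p of 0.0013.

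Set directly against each other, IFN alpha exceeded IFN gamma for both genes in all 4 windows. The Mx1 difference was 2.05 ± 0.43 at 0-30 min (adjusted p = 0.013), 5.5 ± 0.43 at 30-60 min (1.2e-10), 7.28 ± 0.43 at 150-180 min (8.4e-14) and 3.21 ± 0.43 at 0-60 min (7.9e-06). The Mx2 difference was 2.64 ± 0.44, 6.55 ± 0.44, 5.73 ± 0.44 and 4.76 ± 0.44 in the same order, with adjusted p of 7.6e-04, 6.9e-12, 4.6e-11 and 1.5e-08 in limma. The share of probe sets called higher with IFN alpha than with IFN gamma was 0.137%, 2.02%, 1.39% and 1.47%. At 150-180 min Mx1 had the largest difference of all 21874 probe sets (156-fold), and Mx2 had that of rank 5 (53.1-fold). The Mx1 mean with IFN gamma there, 3.79, lay under the filter with 1 of 3 arrays above it, so its fold and rank are set against background signal, and with 16 added to the unlogged values the differences were 6.18 for Mx1 and 5.03 for Mx2. The groups of either gene did not overlap in any window, which was so for 4.31%, 7.14%, 8.97% and 7.94% of probe sets. The Mx1 difference at 0-30 min lost its call without IFN alpha array 1 (1.73, adjusted p = 0.17), and also without IFN alpha array 3 or any 1 IFN gamma array, and with 16 added (1, adjusted p = 0.69) or against a 2-fold minimum. The Mx2 difference at 0-30 min was 1.93 without IFN alpha array 1 and 3.41 without array 2, passed in both fits, and ended against a 2-fold minimum (adjusted p = 0.41). That Mx2 call only just passed with 16 added (1.43, adjusted p = 0.049) and with the 0-30 min arrays alone (adjusted p = 0.048). At 0-60 min the Mx1 difference was 2.23 without IFN alpha array 2 (adjusted p = 3e-06), and its call ended with only the arrays of that window (adjusted p = 0.13).

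**Figure D3:**
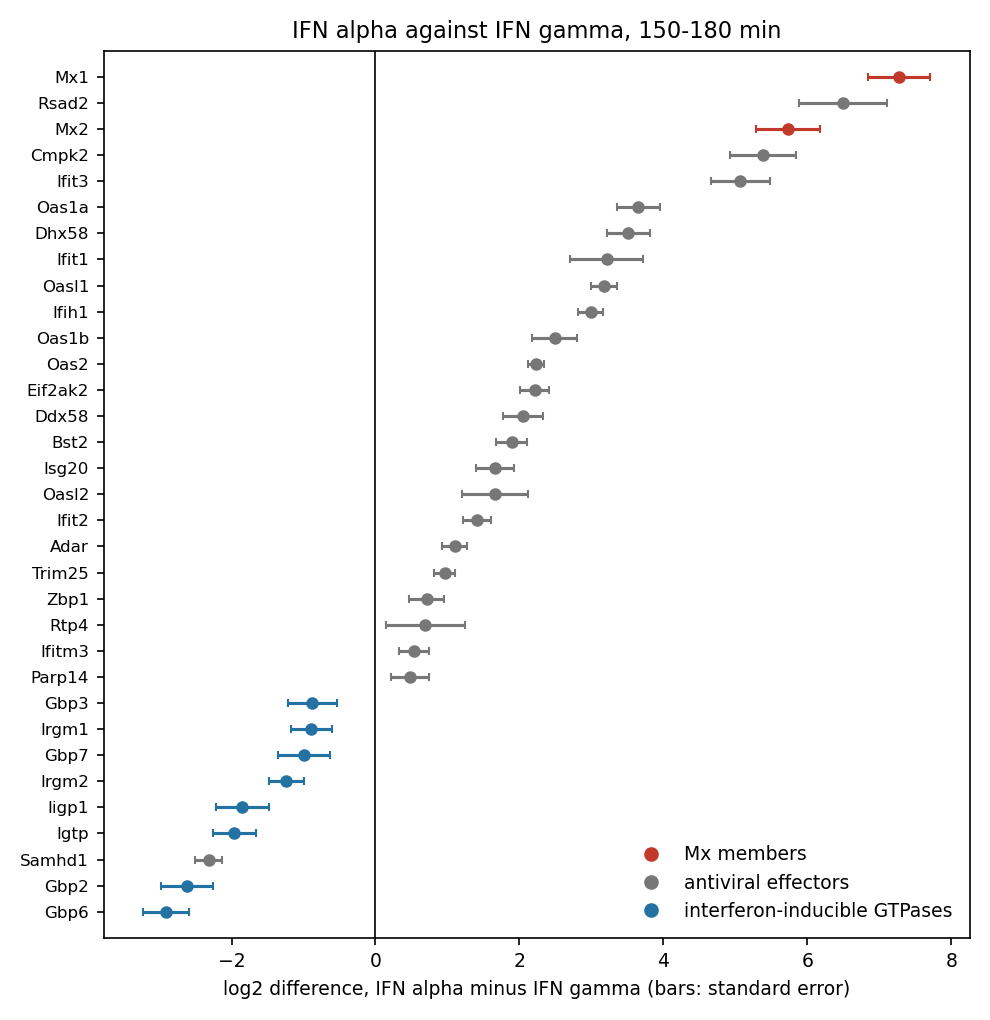
Log2 difference of IFN alpha minus IFN gamma at 150-180 min (horizontal axis, bars are standard errors, n = 3 arrays per group) for Mx1 and Mx2, 23 antiviral effectors and 8 interferon-inducible GTPases. Mx1 (7.28), Rsad2 (6.5) and Mx2 (5.73) lie farthest to the right, and all 8 GTPases of the other families lie below 0.

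In mock alone the Mx signal stayed at background in every window. Group means ran from 2.78 to 3.04 for Mx1 and from 2.53 to 2.76 for Mx2, with 0 of 12 mock arrays above the filter for either gene. Between 30-60 and 0-30 min the mock difference was 0.26 ± 0.43 for Mx1 and -0.01 ± 0.44 for Mx2, between 150-180 and 30-60 min it was -0.02 ± 0.43 and 0.23 ± 0.44, and between 0-60 and 0-30 min it was 0.21 ± 0.43 and 0.02 ± 0.44. None of the 6 passed in limma (adjusted p of 0.63 to 0.98), while these comparisons called 20.7%, 39.2% and 9.25% of all probe sets higher and 37.2%, 24% and 19.6% lower. Values at background can hide a change in either direction.

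Ordered by group mean, both genes ran IFN alpha 150-180, 30-60, 0-60 and 0-30 min, then IFN gamma 150-180 min, then the 7 other groups. IFN alpha at 150-180 min did not overlap with its neighbour at 30-60 min, nor did that group with 0-60 min. How many of all probe sets separated in this way between windows was not counted. Levels also differed between windows without interferon: in mock, 39.2% of all probe sets were called higher and 24% lower at 150-180 than at 30-60 min. The 0-60 min groups further differed in labelling time and in the concentration of the labelling nucleoside. The order of the windows was not tested and is no result for the Mx genes alone. IFN alpha at 0-60 and 0-30 min overlapped for both genes. IFN alpha at 0-30 min overlapped with IFN gamma at 150-180 min too, where Mx1 averaged 4.88 and 3.79 and Mx2 5.33 and 4.66. The 7 lowest groups of Mx1 spanned 2.78 to 3.16 and those of Mx2 2.53 to 2.76, and every neighbouring pair among them overlapped.

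On some IFN alpha arrays Mx1, Mx2 and most other antiviral effectors deviated in the same direction. In the 0-30 min group array 1 lay 0.65 (Mx1) and 1.43 (Mx2) above the group mean, and 21 of 23 tested antiviral effectors were above their group mean on that array. On array 2 of that group the deviations were -0.66 and -1.53, with 4 of 23 effectors above theirs. In the 0-60 min group array 2 lay 1.95 and 1.34 above the mean, with 22 of 23 effectors above theirs, and on array 3 the deviations were -1.13 and -0.34, with 0 of 23 above. The median deviation of all tested probe sets on these 4 arrays was between -0.06 and 0. The other arrays of these groups differed from this: on array 3 at 0-30 min Mx1 and Mx2 deviated by 0.01 and 0.1 while 3 of 23 effectors were above their mean, and on array 1 at 0-60 min they deviated by -0.82 and -1.01 with an effector median of -0.12 and a median of 0.12 over all probe sets. At 150-180 min the IFN alpha deviations of Mx1 and Mx2 were at most 0.13 in size. At 0-60 min the same-numbered arrays of the other treatments went the same way. On array 2, 18 of 23 effectors with IFN gamma and 17 in mock were above their group mean, and on array 3, 7 and 5. At 0-30 min these counts were 12 and 16 on array 1, and 10 and 13 on array 2. What sets these arrays apart was not tested. The differences above without IFN alpha array 1 at 0-30 min and without IFN alpha array 2 at 0-60 min give the results without those arrays.

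**Figure D4:**
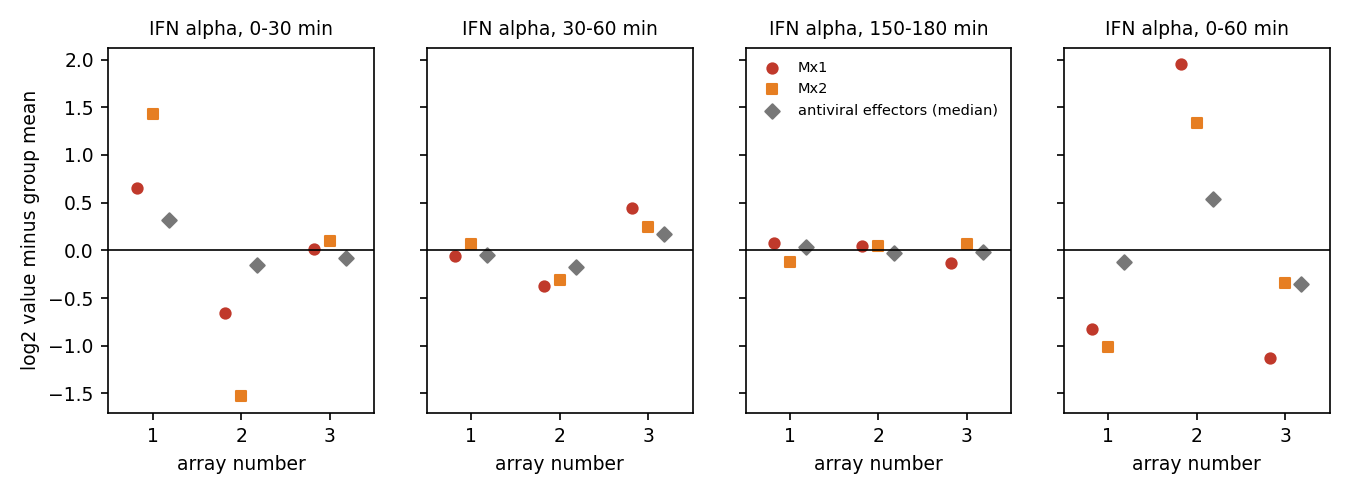
Deviation of each IFN alpha array from its group mean (log2, vertical axis) by array number for Mx1, Mx2 and the median of 23 antiviral effectors, 1 panel per labelling window. At 0-30 min array 1 is high (Mx2 at 1.43) and at 0-60 min array 2 is high (Mx1 at 1.95), and at 150-180 min the points lie near 0.

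Of the other antiviral effector genes, 9 of 23 tested were higher with IFN alpha at 0-30 min, 18 at 30-60 min, 23 at 150-180 min and 18 at 0-60 min, beside 0.338%, 1.84%, 2.29% and 1.39% of all probe sets. None of the 23 passed as lower, beside 0%, 0.155%, 0.0914% and 0.032% of all probe sets called lower. The list's median difference was 0.69, 2.19, 4.23 and 2.17 in the same order, beside -0.01, -0.05, -0.05 and 0.06 over all probe sets tested. At 150-180 min Oasl2, of the oligoadenylate synthetase-like family (8.54 ± 0.46), and Ifit3, which binds viral RNA with its partners (8.29 ± 0.41), and Rsad2, which encodes viperin (8.13 ± 0.61), rose most of the 23, beside 8.06 ± 0.43 for Mx1. Some effectors that were called at 150-180 min were at background earlier: Oas2 differed by 0.01 at 30-60 min and rose by 5.03 ± 0.11 at 150-180 min. Under IFN gamma 18 of 23 passed as higher at 150-180 min (median 2.34), beside 3.82% of all probe sets (median -0.06), and Rsad2 (1.63 ± 0.61, adjusted p = 0.17) and Cmpk2, a mitochondrial nucleotide kinase encoded beside it (0.83 ± 0.46, adjusted p = 0.49), did not pass. Among the same 25 genes Mx2 stood at place 14 and Mx1 at place 21 with IFN gamma at 150-180 min. The Mx1 difference behind that place was not called in limma (0.78, adjusted p = 0.49). Both Mx mock means lay under the filter, so these places too are set against background signal. IFN alpha exceeded IFN gamma at 150-180 min for 18 of 23 effectors and was below it for 1, beside 1.39% of all probe sets called higher and 1.94% called lower. That gene was Samhd1 (-2.32 ± 0.19), which degrades nucleotides that retroviruses need.

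Genes that carry the type I signal were called in part. Of 8 tested type I signalling genes 2, 3, 3 and 3 were higher with IFN alpha at 0-30, 30-60, 150-180 and 0-60 min, beside 0.338%, 1.84%, 2.29% and 1.39% of all probe sets. Irf9, the DNA-binding part of ISGF3, rose by 2.81 ± 0.17 at 0-30 min and 4.22 ± 0.17 at 150-180 min, and Irf7, a transcription factor that amplifies type I responses, rose by 2.02 ± 0.29 and 4.09 ± 0.29. Stat2 differed by 1.09 ± 0.43 at 0-30 min (adjusted p = 1) and rose by 3.93 ± 0.43 at 30-60 min. With IFN gamma at 150-180 min Irf9 rose by 3.89 ± 0.17, Stat2 by 3.48 ± 0.43, Irf7 by 1.36 ± 0.29 and Ifnar2, a chain of the type I receptor, by 1.22 ± 0.2. At 150-180 min the difference between IFN alpha and IFN gamma did not pass for Irf9 (0.33 ± 0.17) and Stat2 (0.54 ± 0.43), and Irf7 was higher with IFN alpha by 2.73 ± 0.29. Ifnar2 was lower with IFN alpha than with IFN gamma (-1.12 ± 0.2). The 5 tested type II signalling genes had 1 higher in each window with either interferon, Irf1, a transcription factor, which at 150-180 min was lower with IFN alpha than with IFN gamma (log2 difference -3.91 ± 0.19). With IFN gamma 0.539%, 2.98%, 3.82% and 2.86% of all probe sets were called higher at 0-30, 30-60, 150-180 and 0-60 min.

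Of 6 feedback inhibitors tested, 0 passed with IFN alpha at 0-30 min, 2 were higher at 30-60 min and 3 at 150-180 min, and 4 were higher with IFN gamma at 150-180 min. Of all probe sets 0.338%, 1.84% and 2.29% were called higher with IFN alpha in these windows, and 3.82% with IFN gamma at 150-180 min. Usp18, which blocks the type I receptor, rose by 6.7 ± 0.51 with IFN alpha at 30-60 min and by 7.85 ± 0.51 at 150-180 min, and by 3.56 ± 0.51 with IFN gamma at 150-180 min. Socs1, which inhibits Janus kinases, and Socs3 were lower with IFN alpha than with IFN gamma at 150-180 min (-3.02 ± 0.35 and -2.58 ± 0.15). The 3 interferon ligand genes on the array, Ifnb1, Ifna4 and Ifng, all lay under the filter, with means of 2.3 to 2.5 over all arrays.

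Of 9 tested relatives of Mx in the dynamin superfamily, Gbp3 was higher with IFN alpha at 0-30 min, and Gbp2 and Gbp3, guanylate-binding proteins that attack pathogen vacuoles, were the 2 higher in each later window, by 5.72 ± 0.36 and 6.27 ± 0.34 at 150-180 min. The shares of all probe sets called higher were 0.338% at 0-30 min, and 1.84%, 2.29% and 1.39% at 30-60, 150-180 and 0-60 min. The list holds 2 of the guanylate-binding proteins, and others stand among the interferon-inducible GTPases. The other 7, the classical dynamins Dnm1 and Dnm2, the mitochondrial division and fusion GTPases Dnm1l, Opa1, Mfn1 and Mfn2, and the endoplasmic reticulum GTPase Atl3, did not pass with either interferon in any window and differed from mock by -0.4 to -0.05 with IFN alpha at 150-180 min. The interferon-inducible GTPases of the GBP and IRG families were higher in 8 of 8 with either interferon at 150-180 min, with a median of 6.54 for IFN alpha and 8.55 for IFN gamma, beside 2.29% and 3.82% of all probe sets called higher. Of these 8, 5 were lower with IFN alpha than with IFN gamma in that window, led by Gbp6 (-2.91 ± 0.32) and Gbp2 (-2.62 ± 0.36), and 0 were higher, beside 1.94% of all probe sets called lower and 1.39% called higher.

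Genes next to Mx1 and Mx2 stayed at background. In the RefSeq annotation the order is Bace2, Mx1, Fam3b, the pseudogene Gm9242, Mx2 and Tmprss2. Of the 8 neighbours 3 were on the array with a single symbol, Bace2, Fam3b and Tmprss2, and 0 of 3 passed the filter, with means of 2.48 to 2.76 over all arrays. Their mean over the 3 genes ran from 2.53 to 2.75 across the 12 groups.

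By correlation over the 12 group means, the genes most like Mx1 among 9549 were Ifit1bl1 (Pearson r = 0.997), Cmpk2 (0.983), Mx2 (0.977), Rsad2 (0.97), Gm9706 (0.961), Bank1 (0.961), Tor3a (0.959), Plscr2 (0.958), Tor1aip1 (0.949) and Dhx58 (0.946). Those most like Mx2 were Tor3a (0.993), Gm9706 (0.987), Ifit1bl1 (0.987), Ifit3 (0.983), Rsad2 (0.979), Mx1 (0.977), Usp18 (0.973), Znfx1 (0.971), N4bp1 (0.964) and Irf7 (0.96). The groups share arrays and treatments, so the coefficients describe a shared pattern and carry no p. The lists had 4 genes in common. Of the 10 genes most like Mx1, 8 stayed among the 10 by correlation over the 36 arrays and 6 by correlation over the 8 responses to interferon, and of those most like Mx2, 9 and 6 stayed. Mx1 and Mx2 correlated with each other at 0.97 over the 36 arrays. Of the genes named, Tor3a, Plscr2, Znfx1, Tor1aip1 and N4bp1 had mock means above the filter at 150-180 min (4.28, 4.71, 5.48, 7.31 and 8.56).

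The promoter table of RefSeq (GRCm38.p6) has no entry for Mx1 or Mx2, and it holds 9 of the genes most like them. In the 250 bases before their start sites, 3 of these 9 genes (33.3%) held an ISRE-like word, GAAANNGAAA on either strand, against 3.46% of 27025 genes. Cmpk2 and Irf7 were among the genes without it. The 9 genes were picked by their pattern in these same data, so the shares describe them and test nothing. The GAS-like word TTCNNNGAA was held by 0 of 9, against 8.13% of all, and so few genes cannot tell 0 from that share. With a spacing of 1 to 3 bases between the GAAA words the counts were 3 of 9 against 8.59%, and with 2 to 4 bases in the GAS-like word 0 of 9 against 20.9%. The stretches of these 3 genes are shown because they are the words found beside the genes that share the Mx pattern. Each runs 5′ to 3′ on the gene's strand, and capitals mark the word, which in all 4 lies on the opposite strand. Another annotated start of Ifit1bl1 also held the word, and a match of letters does not show a bound site.
Ifit1bl1, chr19:34602048-34602087, minus strand, with the word 104 to 95 bases before the start: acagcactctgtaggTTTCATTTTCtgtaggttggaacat
Ifit3, chr19:34583358-34583397, plus strand, 156 to 147 bases before the start: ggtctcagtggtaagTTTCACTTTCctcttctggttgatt
Ifit3, chr19:34583392-34583431, plus strand, 122 to 113 bases before the start: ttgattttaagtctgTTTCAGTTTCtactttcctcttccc
Rsad2, chr12:26456548-26456587, minus strand, 120 to 111 bases before the start: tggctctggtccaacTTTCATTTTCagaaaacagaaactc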

How the data were processed

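Newly transcribed RNA was hybridised to 36 arrays, and the authors deposited log2 values for 45101 probe sets, and the submitters' processing notes name GCRMA, without a version. Single values lay between 1.34 and 14.82 and array medians between 3.13 and 3.27, and nothing was normalized again. The 64 control probe sets were left out, and no column lacked a sample. Arrays hold no counts, so their number per group and the signal over background limit the precision. Symbols came from the platform annotation given for these probes. Probe sets above log2 4 in at least 3 arrays were tested in limma 3.58.1 under R 4.3.3 (tables read by data.table, version 1.17.8): 12 group means, eBayes with an intensity trend, 24 residual and 5.4 prior degrees of freedom, 19 contrasts, two-sided, with Benjamini-Hochberg adjustment over 21874 probe sets and a threshold of 0.05. Errors are standard errors of that fit, with 1 spread per probe set over all windows. The SDs of the single groups ran from 0.00892 to 1.7 for Mx1 and from 0.00452 to 1.48 for Mx2. So the errors do not measure the spread within a given window. In limma with the 150-180 min arrays alone, the IFN alpha minus mock errors were 0.2 for Mx1 and 0.23 for Mx2 (adjusted p = 2.2e-09 and 1.2e-08). The procedure was run on simulated data with independent normal noise and an equal spread in all groups. The Mx values have unequal spreads, a background floor and array numbers that pair, so that run does not cover them. Where a gene had several tested probe sets, the one with the highest mean stood for it. The genes most like Mx were the 10 with the highest Pearson r over group means. From each list at most 4 genes were to be named, those with the largest differences, and others were named after their values were seen. Words in promoters and figures were made with Python 3.11.15, pandas 2.3.3 and matplotlib 3.10.9. The tests were repeated without the filter and with log2 6 as its limit, on log2 of the unlogged value plus 16, after quantile normalization or a shift to a common median, with 1 probe set per gene, in the compared windows alone, without the trend, with array weights, with a replicate block, against a 2-fold minimum, and with each array left out. Same-numbered arrays of different treatments deviated together (r above 0.1) in 9 of 9 pairs at 0-30, 0-60 and 30-60 min and in 7 of 9 at 150-180 min. Members, lists and tests were chosen with earlier results of these data known. A gene of the signalling lists is not reported here.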

Additional observations from a re-analysis of the deposited data

Results flagged for a closer look

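With the processing described above, the direct difference between the interferons passed limma's test of the difference itself for both Mx genes in every window. The calls of both genes at 0-30 min and of Mx1 at 0-60 min ended under some of the alternatives given below. IFN alpha minus IFN gamma was 2.05, 5.5, 7.28 and 3.21 on the log2 scale for Mx1, and 2.64, 6.55, 5.73 and 4.76 for Mx2, at 0-30, 30-60, 150-180 and 0-60 min. The response to IFN alpha also differed between windows, tested as an interaction: at 30-60 min it exceeded that at 0-30 min by 3.52 for Mx1 and 3.77 for Mx2. Against a 2-fold minimum the Mx1 increase was not called (adjusted p = 0.052 in limma).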

How the results depend on the processing

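Exceptions to the Mx calls follow, as a log2 difference with the adjusted p of limma. After 16 was added to the unlogged values, 4 calls ended: Mx1 at 0-30 min against mock (1.01, adjusted p = 1) and IFN gamma (1, adjusted p = 0.69), Mx2 at 0-30 min against mock (1.47, adjusted p = 0.053), and Mx2 with IFN gamma at 150-180 min (0.86, adjusted p = 0.21). The change of the Mx1 IFN alpha response to 150-180 min then passed (2.37, adjusted p = 0.0076), as it did with array weights (2.23, adjusted p = 0.0025) and with only the arrays of those windows (2.43, adjusted p = 3.5e-04). Against a 2-fold minimum the calls ended at 0-30 min for Mx1 (2.1 against mock and 2.05 against IFN gamma) and Mx2 (2.78 and 2.64), for the Mx1 increase of the IFN alpha response to 30-60 min (3.52, adjusted p = 0.052), and for Mx2 with IFN gamma at 150-180 min (1.9). Fitted within the compared windows alone, the calls of Mx1 at 0-60 min (3.21 against mock, adjusted p = 0.15, and 3.21 against IFN gamma, adjusted p = 0.13) and of Mx2 at 0-30 min (2.78, adjusted p = 0.057) ended, and Mx1 with IFN gamma at 150-180 min (0.78, adjusted p = 0.038) and the Mx2 change of the IFN gamma response to that window (1.89, adjusted p = 0.0013) passed. That Mx2 change also passed with array weights (1.8, adjusted p = 0.028). In the fits of the compared windows alone the differences stayed the same and the standard errors changed. They went from 0.43 to 0.67 for Mx1 at 0-60 min and from 0.44 to 0.52 for Mx2 at 0-30 min. For Mx1 with IFN gamma at 150-180 min the standard error went from 0.43 to 0.2, and for the Mx2 change from 0.63 to 0.3. The cause was not tested.

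The replicate block changed 1 Mx call, the Mx1 change of the IFN alpha response from 30-60 to 150-180 min (2.43, adjusted p = 0.016) and no other.

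Uncalled differences turned sign: Mx1 with IFN gamma at 30-60 min (-0.03) and its change from 0-30 min (-0.07) with array weights, Mx1 in mock from 30-60 to 150-180 min (0.02) after quantile normalization, and, after quantile normalization and with a common median, Mx2 with IFN gamma at 30-60 min (-0.01 and -0.02) and Mx2 in mock between 0-60 and 0-30 min (-0.07 and -0.05). With 1 array left out, Mx1 at 0-30 min ran from 1.78 to 2.43 against mock and from 1.73 to 2.38 against IFN gamma. Uncalled ones ran from -0.01 to 0.22 (Mx1, change of the IFN gamma response to 30-60 min), from -0.11 to 0.12 (Mx1 in mock, 150-180 minus 30-60 min), from -0.01 to 0.06 (Mx2 in mock, 0-60 minus 0-30 min) and from -0.04 to 0.03 (Mx2 in mock, 30-60 minus 0-30 min).

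The numbers of probe sets called were lowest with the 2-fold minimum and highest with array weights, the replicate block or, in mock, no filter. For IFN alpha against mock they were 74 (25 to 177), 437 (154 to 1807), 521 (204 to 5806) and 310 (104 to 955) at 0-30, 30-60, 150-180 and 0-60 min, and for IFN gamma against mock 124 (29 to 350), 950 (184 to 2202), 1029 (233 to 7213) and 941 (127 to 3851). For IFN alpha against IFN gamma they were 111 (11 to 354), 910 (164 to 2078), 729 (148 to 2027) and 579 (48 to 1546). For the change between windows they were 181 (56 to 967) and 88 (40 to 3281) for the IFN alpha response and 235 (36 to 777) and 303 (51 to 2907) for the IFN gamma response, to 30-60 and then to 150-180 min. In mock they were 12666 (2239 to 15691), 13818 (3293 to 16416) and 6321 (138 to 18477) for 30-60 minus 0-30, 150-180 minus 30-60 and 0-60 minus 0-30 min. At 0-60 min they were 948 for IFN alpha against mock without mock array 3, and 2237 for IFN gamma without mock array 2. Signal near background limits every mock value and most IFN gamma values of the Mx genes.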
